A study of Mus musculus with 6 samples.

Results

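Ribosomal protein genes of the cytosolic ribosome were examined in T follicular helper (Tfh) cells, which give B cells the signals for antibody responses. The members were chosen by gene symbol: symbols beginning with Rpl or Rps and a digit, and Rpsa and the stalk genes Rplp0, Rplp1 and Rplp2, without S6 kinase genes, Rps19bp1 and pseudogene symbols with -ps. The rule found 36 of the 14744 genes in the table, and all 36 passed the filter on low values (10 or more in 3 or more libraries), as 11296 genes did. Every one of the 36 was a gene of the small subunit (Rps genes and Rpsa) or a copy of one, and the large subunit genes of the rule were not analysed here, so the values below describe the small subunit, and shares of all normalized counts are of a total to which those genes add nothing.

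Tfh cells were sorted as CD4+B220-CD44+PD-1+CXCR5+ cells from mesenteric lymph nodes of C57BL/6 mice aged 2 to 3 months, with 10000 to 30000 cells for a sample. The 3 WT samples were compared with 3 samples of Bach2fl/flCd4-cre mice, labelled Bach2-cKO, in which Cre under the Cd4 promoter deletes Bach2 in T cells from their development in the thymus onward and not only in Tfh cells. In the study WT stood for littermates that carry Cd4-Cre, although the sample labels do not say so. Polyadenylated RNA was amplified as cDNA before sequencing, and the values are normalized read counts for each gene.

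Small subunit proteins bind the ribosomal RNA that decodes messenger RNA, and cells make them in near equal numbers together with the large subunit proteins. Their messenger RNAs are short and abundant, and most carry a terminal oligopyrimidine (TOP) tract, a C followed by pyrimidines at the transcript start, through which mTOR signalling controls their translation. Activated lymphocytes raise ribosome production when they grow and divide.

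The deleted gene was read in every library before the ribosomal genes. Bach2, a transcriptional repressor, had 233, 222 and 105 normalized counts in WT replicates 1, 2 and 3 and 399, 763 and 591 in the libraries labelled Bach2-cKO. All 3 libraries labelled Bach2-cKO were above all 3 WT libraries, which goes against the label for this transcript (log2 fold change 1.68, limma adjusted p = 0.141). It passed an adjusted p under 0.01 and a change over 2-fold in DESeq2 on 5 libraries (1.81, adjusted p = 0.00116) and in limma with a weight for each library (2.36, adjusted p = 0.000186), while over all other settings its adjusted p was between 0.0705 and 0.507. Counts for a whole gene cannot show whether the deleted exons are missing, so the groups below are named by their labels and each direction below (higher or lower in Bach2-cKO) is that of the libraries labelled Bach2-cKO. All 8 Tfh markers were above the filter in the table, Cxcr5 between 1271 and 2207 and Pdcd1 between 1462 and 2708 normalized counts.

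Some libraries stood apart. WT replicate 1 correlated with the other libraries at 0.79 to 0.86 across genes, where the others correlated with each other at 0.89 to 0.95, and it had 11648 genes above 0, where the others had 13111 to 13567. Within the Bach2-cKO group, replicate 3 differed from replicates 1 and 2 in the ribosomal protein genes, and not only there. Across all genes tested it correlated with Bach2-cKO replicates 1 and 2 at 0.91 and 0.93. Its correlations with WT replicates 2 and 3 were 0.94 and 0.94, and Bach2-cKO replicates 1 and 2 correlated with each other at 0.94. Values without single libraries are therefore given beside most results.

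The summed share of the ribosomal protein genes shows that difference. Together the 36 genes took 4.22%, 4.24% and 3.76% of all normalized counts in WT replicates 1, 2 and 3. They took 7.09% in Bach2-cKO replicate 1, 6.61% in replicate 2 and 3.79% in replicate 3. The WT mean was 4.07% ± 0.274 (SD, n = 3) and the Bach2-cKO mean 5.83% ± 1.78 (SD, n = 3), a difference of 1.76 percentage points. Without Bach2-cKO replicates 1, 2 and 3 in turn the difference was 1.13, 1.37 and 2.78, and without WT replicates 1, 2 and 3 it was 1.83, 1.84 and 1.6. Bach2-cKO replicates 1 and 2 were above every WT library, and replicate 3, at 3.79%, lay among the WT libraries, so the groups overlapped. The share is of RNA in bulk samples, in which fewer cells of a kind and less RNA per cell cannot be told apart.

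**Figure D1:**
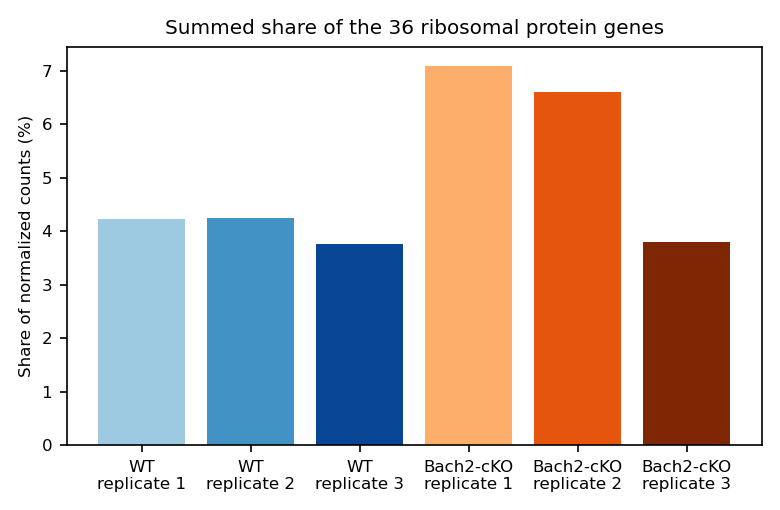
Share of all normalized counts taken by the 36 ribosomal protein genes, in percent, as a bar for each library. The WT bars lie between 3.76% and 4.24%, and the Bach2-cKO bars stand at 7.09%, 6.61% and 3.79%.

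Read member by member, 32 of 36 were above every WT library in Bach2-cKO replicate 1 and 33 of 36 in replicate 2. In Bach2-cKO replicate 3 only 1 of 36, Rps14, was above every WT library, and 23 of 36 were below every WT library. Over all 11296 genes tested, 36.2%, 34.3% and 25.3% were above every WT library in Bach2-cKO replicates 1, 2 and 3, and 30.9%, 28.7% and 22.4% were below. On the scale of log2(value + 1), the median member differed from its own WT mean by 0.75 in Bach2-cKO replicate 1, by 0.62 in replicate 2 and by -0.17 in replicate 3. The medians over all genes tested were 0.13, 0.11 and 0.06. WT libraries were close to each other: the median coefficient of variation of the members was 8.07% in WT and 29.9% in Bach2-cKO, and it was higher in Bach2-cKO for 34 of 36. Over all genes tested these medians were 29.2% in WT and 25.5% in Bach2-cKO, and the coefficient was higher in Bach2-cKO for 4754 of 11296.

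**Figure D2:**
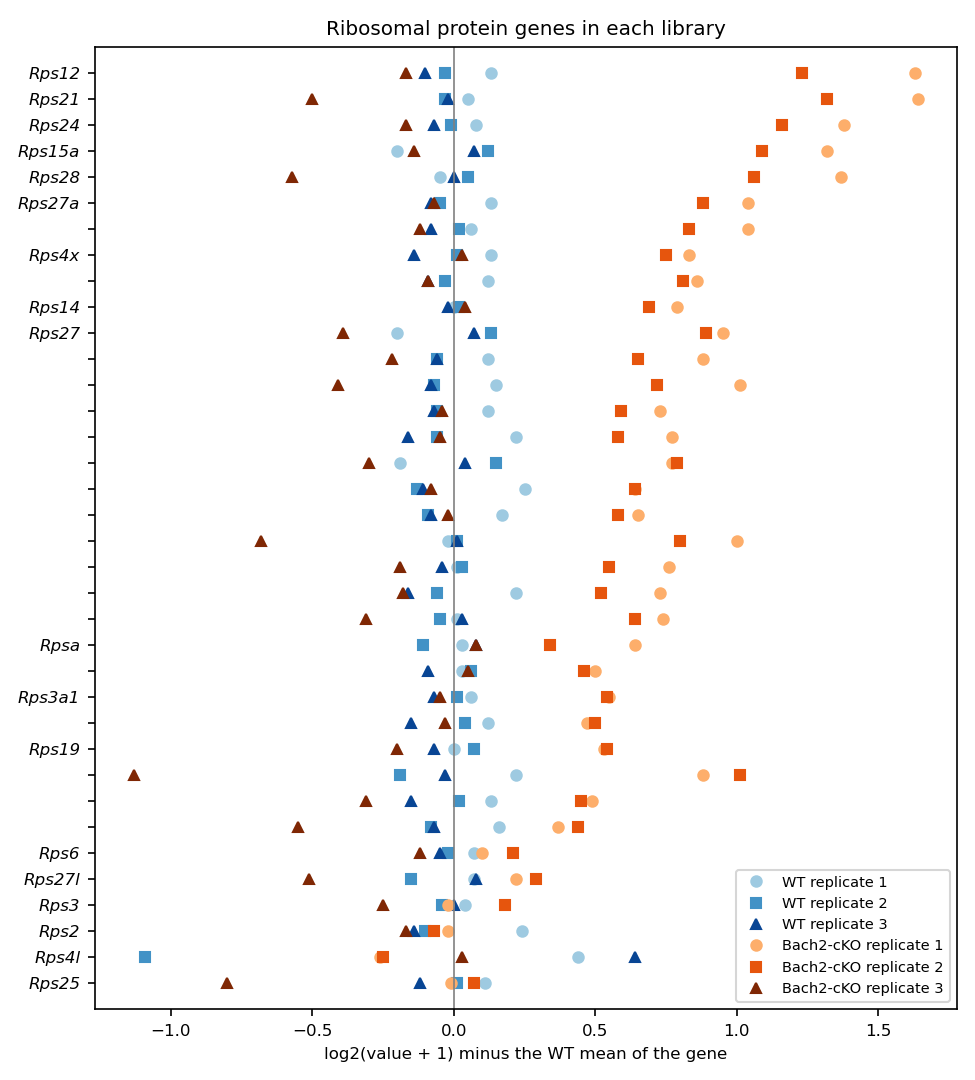
Each row is a ribosomal protein gene and each point a library, placed at log2(value + 1) minus the WT mean of that gene, with genes ordered by log2 fold change and names given for those described by rule. Bach2-cKO replicates 1 and 2 lie to the right of the WT libraries for 32 and 33 of the 36 genes, and replicate 3 lies to the left of them for 23.

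The differences between the groups were tested with limma on log2(value + 1) over all 11296 genes, with Benjamini-Hochberg adjustment over all of them. Of the 36 members, 0 were higher and 0 lower at an adjusted p under 0.01 with a change over 2-fold, as was the case for 0% of all genes tested in each direction. At an unadjusted p under 0.05, 2 members (Rps12 and Rps24) were higher, against 10.1% of all genes tested, and 0 were lower, against 10.2%. The groups did not overlap for 1 member, Rps14, which was higher in Bach2-cKO, against 14.6% of all genes tested, and for 0 that were lower, against 12.2%. The log2 fold change was above 0 for 32 members and below 0 for 4, with a median of 0.39 beside 0.08 over all genes tested, and with libraries rescaled to the same median it was above 0 for 30 and below for 6. With 3 samples against 3, an exact permutation test of a single gene cannot give a two-sided p under 0.1, and nothing in the labels says whether samples came from separate mice, so the p-values measure only the spread between these samples.

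**Figure D3:**
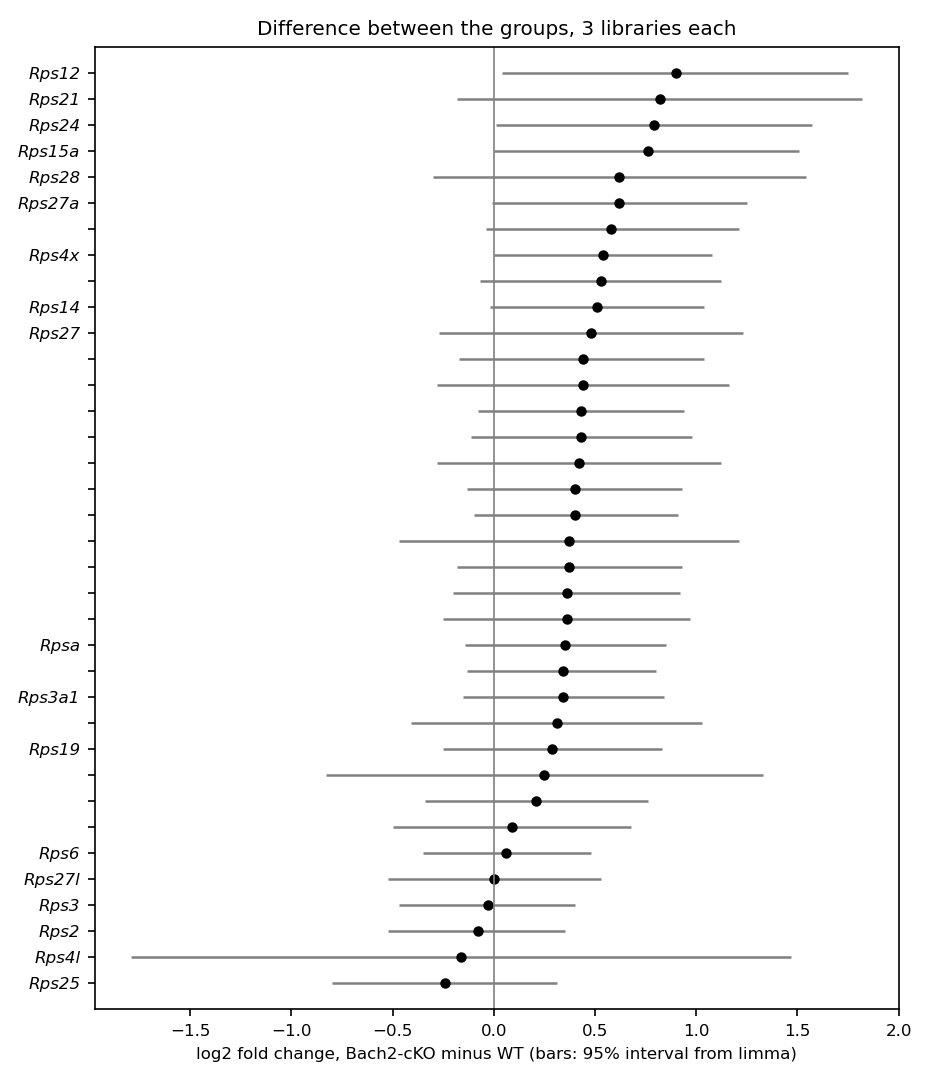
Log2 fold change of each ribosomal protein gene, Bach2-cKO minus WT (points), with the 95% interval from limma (bars), 3 libraries in each group, and names for the genes described by rule. Rps12 has the highest value, 0.90, and Rps25 the lowest, -0.24, and the bars cross 0 for all members but Rps12 and Rps24.

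These counts differed with the library left out. Without Bach2-cKO replicate 1 the groups did not overlap, with Bach2-cKO higher, for 1 of 36 members, against 17% of all genes tested, and without replicate 2 also for 1 of 36, against 17%. Without replicate 3 they did not overlap for 32 of 36, against 27.2%, and the members that overlapped were Rps2, Rps3, Rps25 and Rps4l. At an unadjusted p under 0.05, 29 of 36 were then higher, against 13.1%, and at an adjusted p under 0.05 with no limit on the fold, 15 of 36, against 1.61%, while 0 passed both thresholds. Replicate 3 is the library in which the members were lowest, so the count without it follows partly from that choice. The median log2 fold change of the members was 0.24 without Bach2-cKO replicate 1, 0.28 without replicate 2 and 0.67 without replicate 3. Without WT replicates 1, 2 and 3 in turn it was 0.38, 0.37 and 0.37. The groups then did not overlap for 6, 2 and 2 members that were higher, against 20.5%, 21.6% and 19.2% of all genes tested, and 1, 0 and 0 members were higher at an unadjusted p under 0.05 in limma, against 9.79%, 12.1% and 9.68%. That last count was 0 without Bach2-cKO replicate 1, against 4.14%, and 0 without replicate 2, against 4.74%. A fit that estimates a weight for each library gave weights of 0.21, 1.04 and 2.51 to WT replicates 1, 2 and 3 and 0.79, 5.54 and 0.42 to Bach2-cKO replicates 1, 2 and 3. In that fit 28 of 36 members were higher at an adjusted p under 0.05, against 18.5% of all genes tested, and 3 (Rps12, Rps21 and Rps24) were higher past both thresholds, against 4.97%. Count tests were run on whole reads of 5 libraries, with WT replicate 1 left out by choice and 2 WT libraries used. On these reads 0 members passed both thresholds in edgeR and 0 in DESeq2, where the smallest adjusted p of a member was 0.0678 (Rps12), against 0.31% of all genes tested in DESeq2. At an unadjusted p under 0.05, 9 were higher in DESeq2, against 9.66%, and 5 in edgeR, against 9.55%.

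The members with the highest log2 fold changes were Rps12, Rps21, Rps24, Rps15a and Rps28. With each library freed of its trend over length and GC of the longest annotated transcript, the order was another. Rps12 was then at 1.29, Rps21 at 1.15, Rps28 at 0.95, Rps24 at 0.66 and Rps15a at 0.42. Rps27a at 1.15, Rps4x at 0.91 and Rps3a1 at 0.72 were above Rps24 and Rps15a. The longest transcripts of Rps24 and Rps15a have 4059 and 5179 bases, where their coding lengths are 399 and 390. The part of this in their order was not tested. Rps12 had 5262, 4718 and 4479 normalized counts in WT replicates 1, 2 and 3 and 14853, 11262 and 4282 in Bach2-cKO replicates 1, 2 and 3. Bach2-cKO replicates 1 and 2 were far above the WT libraries and replicate 3 was below all of them, so the groups overlapped, and the log2 fold change was 0.90 (SE 0.38, limma adjusted p = 0.227). With 1 library left out it was between 0.53 (without Bach2-cKO replicate 1) and 1.43 (without replicate 3), and these libraries gave the lowest and the highest value for the other 4 as well. Rps21 had 3020, 2846 and 2870 in WT and 9100, 7276 and 2060 in Bach2-cKO, a log2 fold change of 0.82 (SE 0.45), or 0.41 to 1.48 with 1 library left out. The WT libraries of Rps21 differed by a coefficient of variation of 3.24% and the Bach2-cKO libraries by 59.5%. Rps28, which is close to the exit of messenger RNA from the subunit, had 6279, 6755 and 6512 in WT and 16804, 13601 and 4395 in Bach2-cKO, a log2 fold change of 0.62 (0.25 to 1.21 with 1 library left out). For Rps21 and Rps28, as for Rps12, Bach2-cKO replicate 3 was the lowest of the 6 libraries. Rps15a had 7798, 9754 and 9416 in WT and 22314, 19064 and 8111 in Bach2-cKO, with replicate 3 inside the WT range (log2 fold change 0.76, SE 0.34, or 0.47 to 1.2 with 1 library left out).

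Mutations in several small subunit genes, among them Rps19, Rps24 and Rps29, cause Diamond-Blackfan anemia, a failure of red cell production. Rps24 had 7518, 7043 and 6765 in WT and 18497, 15887 and 6323 in Bach2-cKO (log2 fold change 0.79, SE 0.35, limma adjusted p = 0.239), and the log2 fold change was 0.50 to 1.27 with 1 library left out. Its Bach2-cKO replicate 3 was the lowest library and the other Bach2-cKO libraries the highest. Rps19, the gene most often mutated in that disease, had 16665, 17483 and 15853 in WT and 24086, 24240 and 14476 in Bach2-cKO, a log2 fold change of 0.29 (SE 0.24, or 0.17 to 0.54 with 1 library left out), again with replicate 3 below all WT libraries. Rps29, a zinc-binding protein, had 13706, 14010 and 13948 in WT, the lowest coefficient of variation of the members at 1.16%, and 27753, 24137 and 8668 in Bach2-cKO. Here too replicate 3 was below all WT libraries and the other Bach2-cKO libraries were above them, and the log2 fold change was 0.37 (SE 0.38). Without Bach2-cKO replicates 1, 2 and 3 in turn that of Rps29 was 0.06, 0.16 and 0.90.

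The members with the most normalized counts over the 6 libraries, before any correction for length, were Rpsa, Rps27, Rps14, Rps19 and Rps3a1. Rpsa, which also serves as a receptor for laminin, had 23671, 21587 and 24597 in WT and 36275, 29406 and 24576 in Bach2-cKO. Its Bach2-cKO replicate 3 lay just under the highest WT library, and the log2 fold change was 0.35 (SE 0.22), or 0.21 without Bach2-cKO replicate 1 and 0.49 without replicate 3. Rps14, part of the platform of the subunit, had 16000, 16208 and 15750 in WT and 27667, 25862 and 16453 in Bach2-cKO. Its groups did not overlap, by the step from 16208 to 16453, and its log2 fold change was 0.51 (SE 0.24, limma adjusted p = 0.258). When the libraries were rescaled to the same median no member's groups were apart, and Rps14 was at 0.42 (limma adjusted p = 0.322). With 1 library left out the log2 fold change of Rps14 was 0.37 to 0.74. Rps27 had 14979, 18928 and 18063 in WT and 33258, 31918 and 13172 in Bach2-cKO, and its log2 fold change was 0.25 to 0.92 with 1 library left out. Rps3a1 had 16260, 15796 and 14902 in WT and 22887, 22668 and 15077 in Bach2-cKO, with replicate 3 inside the WT range and a log2 fold change of 0.24 to 0.54 with 1 library left out. Per kilobase of coding sequence, the mean level over the 6 libraries was highest for Rps29 at 101411 and Rps27 at 86189 and was 30153 for Rpsa and 13112 for Rps6, on a scale that sets short genes higher since reads in untranslated parts are counted too.

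Other members had log2 fold changes near or below 0. Rps2 and Rps3, which line the entry of messenger RNA into the ribosome, had log2 fold changes of -0.08 (SE 0.19) and -0.03 (SE 0.20), and both signs turned to above 0 under quantile normalization. Rps2 had 13490, 10694 and 10331 in WT and 11262, 10912 and 10171 in Bach2-cKO, with a coefficient of variation of 5.17% in Bach2-cKO, the lowest of the members in that group. Rps3 had 14220, 13492 and 13832 in WT and 13609, 15648 and 11659 in Bach2-cKO. Rps6, the protein that S6 kinases phosphorylate, had 10003, 9435 and 9245 in WT and 10221, 11050 and 8811 in Bach2-cKO, a log2 fold change of 0.06 (SE 0.19) whose sign turned when libraries were rescaled to the same median and when the length and GC trend was taken out. In these genes Bach2-cKO replicate 3 was again the lowest Bach2-cKO library. Rps25 had 10036, 9314 and 8535 in WT and 9211, 9750 and 5340 in Bach2-cKO, with replicate 3 below all WT libraries, and its log2 fold change was -0.24 (SE 0.25) with that library and 0.03 without it.

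Paralogs and fusion genes were read beside the core members. Rps27l, a paralog of Rps27 that p53 induces, had 4207, 3618 and 4219 in WT and 4664, 4897 and 2815 in Bach2-cKO. Its fold change on the log2 scale was 0.00 (SE 0.24), and that of Rps27 was 0.48 (SE 0.34). With libraries rescaled to the same median Rps27l was at -0.08, and with the length and GC trend taken out it was at 0.56 and Rps27 at 0.58, and the difference between these genes was not tested. Rps27a, which is made as a fusion with ubiquitin, had 10231, 9062 and 8818 in WT and 19181, 17238 and 8897 in Bach2-cKO (log2 fold change 0.62, SE 0.28, limma adjusted p = 0.253). Rps4x, carried on the X chromosome, had 10921, 10031 and 9043 in WT and 17704, 16803 and 10202 in Bach2-cKO (log2 fold change 0.54, SE 0.24, limma adjusted p = 0.246). In Rps27a and Rps4x replicate 3 lay inside the WT range, and with 1 library left out their log2 fold changes were 0.41 to 0.96 and 0.39 to 0.79. Outside the rule, Fau, a small subunit protein made as a fusion with a ubiquitin-like domain, had 5482, 5179 and 5450 in WT and 10128, 8714 and 4441 in Bach2-cKO, with replicates 1 and 2 above and replicate 3 below all WT libraries, as in Rps12. Gnb2l1, which codes for the small subunit scaffold RACK1, had 13474, 9501 and 8351 in WT and 15412, 15079 and 10357 in Bach2-cKO.

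Ribosomal protein genes have many near-identical pseudogene copies, and how reads that match several places were counted is not given in the sources used here, so the level of each member is uncertain to that extent. The 63 pseudogene symbols of the family left out by the rule took 0.0784%, 0.076% and 0.0708% of the normalized counts in WT and 0.168%, 0.156% and 0.0535% in Bach2-cKO. In them too Bach2-cKO replicates 1 and 2 were the highest libraries, and replicate 3 was the lowest of all 6. Of the 53 pseudogenes at or above the filter, 40 were above every WT library in Bach2-cKO replicate 1, 44 in replicate 2 and 4 in replicate 3. Over all genes tested 36.2%, 34.3% and 25.3% were above. In replicate 3, 44 of the 53 were below every WT library, against 22.4% of all genes tested. The pseudogenes named after Rps15a together had 505, 611 and 632 in WT and 1728, 1690 and 352 in Bach2-cKO, and their mean was 7.22% of the mean of Rps15a. Rps3a2, Rps3a3 and Rps4l are annotated as processed pseudogenes but carry no -ps, so the rule kept them as members. Rps3a3 had 552, 415 and 466 in WT and 872, 956 and 216 in Bach2-cKO, and Rps4l was low, between 11.2 and 39.5.

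Coding length, which the rule did not use, was related to the size of the deviation. Over the 33 protein-coding members, the Spearman correlation between coding length and deviation from the WT mean was -0.55 in Bach2-cKO replicate 1, -0.57 in replicate 2 and 0.60 in replicate 3, and 0.47, -0.39 and -0.36 in WT replicates 1, 2 and 3. These are descriptions across genes that share libraries and are not independent. Over 605 other genes with a mean of at least 2000, of any coding length, it was -0.08, -0.16 and 0.07 in the Bach2-cKO libraries. The longest member, Rpsa, has 885 coding bases, so these correlations cover unlike ranges of length. The 5 members of at most 300 coding bases and a mean of at least 2000 had median deviations of 1.0, 0.89 and -0.51 in Bach2-cKO replicates 1, 2 and 3, and the 73 other genes of that length and mean had 0.28, 0.25 and -0.12, in the same directions. The 11 members of 301 to 450 coding bases had median deviations of 0.86, 0.72 and -0.17 in Bach2-cKO replicates 1, 2 and 3. The 8 members of 451 to 600 coding bases had 0.70, 0.64 and -0.07, and the 8 members of 601 to 900 had 0.52, 0.40 and -0.09. Other genes with a mean of at least 2000 had medians of -0.18, -0.10 and -0.17 at 301 to 450 coding bases (103 genes). They had -0.49, -0.40 and -0.18 at 451 to 600 (94 genes) and -0.54, -0.42 and -0.13 at 601 to 900 (122 genes). Up to 900 bases the medians in replicates 1 and 2 thus fell with length in the other genes too. Beyond the members' lengths they were -0.47, -0.48 and -0.20 up to 1500 (130 genes). They were 0.13, -0.00 and -0.09 up to 3000 (62 genes) and 0.47, 0.34 and 0.29 above (21 genes). The part of coding length in the result was not tested. Taking out each library's smooth trend in length and GC content of the longest annotated transcript gave the members a median log2 fold change of 0.65. Over all genes it was -0.03. At an unadjusted p under 0.05 in limma, 12 of 36 members were then higher, against 5.65% of all genes tested.

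**Figure D4:**
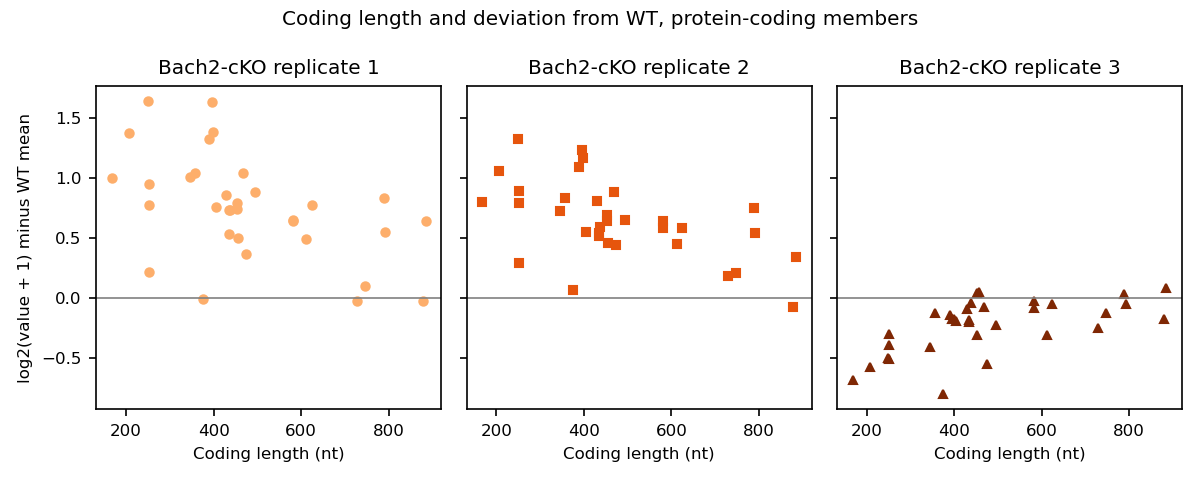
Coding length in nucleotides (horizontal axis) against log2(value + 1) minus the WT mean (vertical axis) for the 33 protein-coding members, with a panel for each Bach2-cKO library. Short members lie highest in replicates 1 and 2, with correlations of -0.55 and -0.57, and lowest in replicate 3, with 0.60.

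Promoter sequences were read because most members lay on the same side of WT in each Bach2-cKO library. RefSeq promoters on build GRCm38.p6, 250 bases before to 50 after the annotated start, were held for 25 of the 36 members and for 27025 genes in all. A C followed by at least 4 pyrimidines at the annotated start, the TOP form, was found in 7 of 25 members, against 3.01% of all genes. The ETS and GABPA core CCGGAAG, on either strand, was in 11 of 25, against 9.93%, and the Sp1 core GGGCGG in 13 of 25, against 38.2%. The YY1 core AAGATGGC was in 2 of 25, against 3.19%, and the TATA box TATAAA in 2 of 25, against 15.7%. The 6 members with a TOP start, other than the paralog Rps27rt, are shown from 50 bases before the start to 15 bases from it on the strand of the gene, with the pyrimidines that open the transcript in capitals. Rps21 lies at chr2:180257329-180257393 on the + strand, Rps15a at chr7:118116133-118116197, Rps27 at chr3:90213634-90213698, Rps10 at chr17:27635230-27635294, Rps18 at chr17:33955651-33955715 and Rps6 at chr4:86857353-86857417, these 5 on the - strand.
Rps21: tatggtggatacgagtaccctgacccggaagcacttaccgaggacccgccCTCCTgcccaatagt
Rps15a: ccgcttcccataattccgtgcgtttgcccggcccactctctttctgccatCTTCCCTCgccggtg
Rps27: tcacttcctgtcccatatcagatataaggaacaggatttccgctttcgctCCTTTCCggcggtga
Rps10: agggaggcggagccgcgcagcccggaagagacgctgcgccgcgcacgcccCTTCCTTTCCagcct
Rps18: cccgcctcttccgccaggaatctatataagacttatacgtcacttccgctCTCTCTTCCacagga
Rps6: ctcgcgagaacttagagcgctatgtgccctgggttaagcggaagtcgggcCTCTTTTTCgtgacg
In order of log2 fold change these members run from Rps21 at 0.82, Rps15a at 0.76, Rps27 at 0.48, Rps10 at 0.44 and Rps18 at 0.34 to Rps6 at 0.06. In that order their tracts had 5, 8, 7, 10, 9 and 9 pyrimidines, and another annotated start of Rps21 has no TOP tract. A start annotated a few bases away from the one in use would hide a tract, so a promoter without one shows only that these letters are not at that position.

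Other genes of the translation machinery were read from lists. No gene of these lists had an adjusted p under 0.05 in limma over all 6 libraries with equal weights, the fit used for the counts that follow. Of 19 other genes with TOP messenger RNAs (translation factors and the like), 5 were higher and 0 lower at an unadjusted p under 0.05, with a median log2 fold change of 0.03, where 10.1% and 10.2% of all genes tested were higher and lower. Pabpc1, the poly(A)-binding protein, had 3648, 4870 and 4358 in WT and 9921, 9313 and 7853 in Bach2-cKO, so that here all 3 Bach2-cKO libraries were above all WT libraries, unlike in most ribosomal protein genes. Eef1a1, an elongation factor, had 35882, 29061 and 29591 in WT and 22352, 26800 and 25928 in Bach2-cKO, all 3 of them below WT. Of 38 ribosome biogenesis genes, 4 were higher and 6 lower, with a median of -0.25, and of 18 genes of mTOR and S6 kinase signalling 1 was higher and 3 lower, with a median of 0.15. Of 76 mitochondrial ribosomal protein genes, 0 were higher and 16 lower, with a median of -0.29, and their median deviations were -0.46, -0.29 and -0.11 in Bach2-cKO replicates 1, 2 and 3. Bach2-cKO replicates 1 and 2 had the highest median deviations of the 6 libraries in the cytosolic genes and the lowest in the mitochondrial genes.

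Several measures differed between the libraries beside the ribosomal protein genes. Recovered depth was 6585742 and 7823717 reads in WT replicates 2 and 3 and 5045131, 10987752 and 7197242 in Bach2-cKO replicates 1, 2 and 3, so the libraries with high ribosomal shares were the shallowest and the deepest of the 5. The 5 erythroid markers, led by Hbb-bs, summed to 5.05, 744 and 7.28 in WT and 29.6, 30.8 and 2867 in Bach2-cKO, so they were highest in the Bach2-cKO library with the lowest ribosomal share. The 3 plasma cell markers, nearly all Jchain, summed to 316, 28870 and 6980 in WT and 2088, 480.4 and 487 in Bach2-cKO. The 6 proliferation markers, led by Birc5, summed to 16338, 6266 and 11329 in WT and 8621, 6119 and 9882 in Bach2-cKO, and were lower in Bach2-cKO replicates 1 and 2 than in replicate 3. The 8 Tfh markers, led by Cd3e, summed to 23327, 23907 and 30529 in WT and 18380, 16042 and 20236 in Bach2-cKO. The 7 B cell markers in the table, led by Cd79b, summed to at most 801 in WT and 418 in Bach2-cKO. The myeloid markers, led by Lyz2, summed to 2234, 7887 and 3922 in WT and 1803, 5151 and 1736 in Bach2-cKO, the 2 CD8 T cell markers to at most 786 and the 2 NK cell markers to at most 317 in any library. At an unadjusted p under 0.05 in limma, 2 of 8 Tfh markers were higher and 2 lower. Lower too were 2 of 6 proliferation markers, 1 of 5 B cell markers and 1 of 4 myeloid markers at the filter. Of the 1 plasma cell, 2 CD8 T cell, 2 NK cell and 2 erythroid markers at the filter, 0 passed in either direction. Over all genes tested 10.1% were higher and 10.2% lower at that level. Hbb-bs was under the filter and was not tested, and the erythroid marker Alas2, at 0, 3.37 and 4.16 in WT and 13.3, 12.1 and 14.3 in Bach2-cKO, had groups that did not overlap. The part of any of these in the ribosomal protein values was not tested.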

How the data were processed

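Deposited values are a signal: the authors divided read counts of each gene by a size factor of the library. The processing notes name STAR 2.5.2b, DESeq, DESeq2 1.20.0 and R 3.5.1 with builds GRCm38 and mm10, whereas the methods of the study name Tophat2 and HTSeq, so the sources differ on the aligner. In all 6 libraries each value divided by the smallest positive value was whole for 100.0% of values (within 0.01). Count tests used 5 libraries, with 2 of WT, and left out WT replicate 1 by choice, since its step of 1.009 is so near 1 that its reads were not accepted as recovered. On these reads DESeq2 1.42.0 called 35 genes higher and 61 lower past both thresholds and edgeR 4.0.16 called 0 and 0.

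Differences were tested in R 4.3.3 with limma 3.58.1 and a trended variance on log2(value + 1), a scale that understates changes of low genes, for genes with at least 10 in at least 3 libraries. Scripts were tested on simulated data. Coding length, positions and transcript length came from GENCODE M21 on GRCm38, with 13313 of 14744 symbols matched directly and 265 more by an older symbol. Transcript length and GC were those of the longest annotated transcript of a gene.

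Members and gene lists were chosen with earlier results of these data known. Named members are the 5 with the highest mean, the 5 with the highest and 5 with the lowest log2 fold change, the 5 with the smallest unadjusted p and a fixed set (Rpsa, Rps6, Rps19, Rps27, Rps27l, Rps27a and large subunit genes, the latter not analysed here). From each list the 4 genes with the smallest unadjusted p could be named. Outside this rule, Rps3a2, Rps3a3, Rps18, Rps27rt, Rps29, Eef1a1, Cxcr5, Pdcd1 and Hbb-bs were named after their values were seen.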

Additional observations from a re-analysis of the deposited data

How the results depend on the processing

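No ribosomal protein gene passed both thresholds in any fit with equal weights, in edgeR or in DESeq2, and 3 were higher with library weights. With an adjusted p under 0.05 and no limit on the fold the count stayed at 0 over all 6 libraries; the same level tried without each library in turn and with library weights was chosen after seeing the data and gave 15 higher without Bach2-cKO replicate 3 and 28 with weights, and 0 without any other library.

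At an unadjusted p under 0.05 the 2 higher members became 6 with a mean of at least 50, 14 with quantile normalization, 0 with rescaling to the same median, 9 with rescaling to the same total, 0 without the variance trend, 29 with weights per library, 12 with a length and GC trend taken out, 5 in edgeR and 9 in DESeq2, and between 0 and 29 when 1 library was left out. The shares of all genes tested were 10.1% at first and, in the order of these settings, 11.6%, 10.6%, 7.99%, 12.4%, 9.05%, 24.3%, 5.65%, 9.55% and 9.66%, and 4.14% to 13.1% when 1 library was left out. The 1 member whose groups did not overlap became 6 with quantile normalization, 0 with the same median, 2 with the same total, 2 without the length and GC trend, 5 in edgeR and 4 in DESeq2, and between 1 and 32 when 1 library was left out; the count of lower members was between 0 and 1. The shares of all genes tested that did not overlap and were higher were 14.6% at first and then 13.4%, 12%, 16.9%, 9.27%, 20.1% and 19.2%, and 17% to 27.2% when 1 library was left out. Rescaling moved the share of higher genes among all genes at an unadjusted p under 0.05 from 49.7% to 38.7% (same median) and 60.1% (same total), and taking out the length and GC trend to 37%.

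With the replicate number as a block, 6 members were higher at an unadjusted p under 0.05, against 9% of all genes tested, and 0 passed the thresholds. Same-numbered libraries correlated at -0.07, 0.12 and -0.04 in their deviations across genes, and libraries of unlike number at -0.15 to 0.12. These values do not show a pairing by number and cannot exclude one.

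The median log2 fold change, 0.39, was above 0 in every setting, between 0.24 and 0.67 when 1 library was left out. The difference in summed share, 1.76 percentage points, was 3.1 for values per kilobase of the longest annotated transcript, over genes matched to the annotation. It was between 1.13 and 2.78 when 1 library was left out.

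Of 22 named genes, 16 kept the sign of the log2 fold change in every setting. Rps25 turned to 0.08 with library weights and to 0.06 without the length and GC trend (-0.40 to 0.03 with 1 library left out). Rps2 turned to 0.06 with quantile normalization, 0.04 with weights, 0.03 in edgeR and 0.01 in DESeq2 (-0.16 to 0.04). Rps3 turned to 0.10 with quantile normalization, 0.04 with the same total and 0.14 with weights (-0.14 to 0.08). Rps27l turned to -0.08 with the same median (-0.14 to 0.26) and was 0.56 without the length and GC trend, and Rps6 to -0.02 with the same median and -0.01 without the length and GC trend (-0.01 to 0.15). Rps4l ranged from -0.70 to 0.16 with 1 library left out, and could not be fitted at a mean of at least 50. The cause of these changes was not tested. Depth limits the precision of members with few counts, and its part in these ranges was not tested.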
